A study of Mus musculus with 2 samples.

Results

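The genes described here are 4 ligands of the epidermal growth factor receptor (EGFR), namely epiregulin (Ereg), amphiregulin (Areg), Hbegf and Tgfa, 5 feedback regulators of the ERK branch of MAPK signalling (Dusp4, Dusp5, Dusp6, Spry2 and Spry4), and Phlda1. They were chosen by name, and all 10 are among the 18319 genes that the table names. The table comes from droplet-based single-cell RNA sequencing (inDrop) of tumors that grew in female mice of the strain given as NuJ after injection of mouse dysplastic stem cells, which the labels name DP-DSC. The 2 libraries were 1 from a tubular adenocarcinoma taken at 13 weeks and 1 from a cystic adenocarcinoma taken at 10 weeks, and how many animals gave each tumor is not stated. The values are the authors' own comparisons for 11 cell clusters, with no column per tumor, so the tumor types could not be compared. No value below has a replicate or an error, no test was possible, and the depth behind each fold is unknown.

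For each cluster the table gives gene names with a linear fold above 1.5 and a p-value, ordered by p. It does not say against which cells a fold was taken. Below, listed means that a gene stands in a cluster's columns, and raised that its fold there reaches 2 with a p of at most 0.05. A gene that is not listed may still be expressed in the cluster. A pair is a gene in a cluster, so that 10 genes and 11 clusters give 110 pairs. Cells are not replicates, so the p, which was made over them, served only to filter and order genes.

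EGFR ligands are made as membrane-anchored precursors, and metalloproteases of the ADAM family cut them free to act on the same cell or its neighbours. Receptor activation passes through RAS, RAF and MEK to the kinase ERK. ERK then induces its own inhibitors, among them Sprouty proteins, which act between receptor and RAF, and dual-specificity phosphatases, which remove phosphate from ERK itself. In the stomach, EGFR ligands are known for driving the growth of surface mucous cells and for repair of the epithelium.

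The clusters were read with fixed marker lists. Cluster 4 was macrophage-like (8 of 8 macrophage markers raised), cluster 10 neutrophil-like (6 of 7) and cluster 11 fibroblast-like (9 of 9). Cluster 4 had 3 of 8 dendritic, 1 of 7 mast cell, 1 of 9 fibroblast and 1 of 6 mucous neck markers raised as well. Cluster 10 also had 5 of 8 T and NK, 4 of 8 macrophage and 3 of 8 dendritic markers raised, and the part of such cells in its values was not tested. Clusters 6 and 9 each had 6 of 7 gastric surface mucous and 5 of 9 general epithelial markers raised. Cluster 3 had 3 of 7 and 5 of 9 raised. Mucous neck markers raised were 3 of 6 in cluster 3, 4 in cluster 6 and 5 in cluster 9. These 3 clusters are called epithelial-like. Each of clusters 9, 10 and 11 also had 1 of 5 endothelial markers raised, and cluster 6 had 1 of 7 mast cell markers. Cluster 2 had 5 of 6 erythroid markers raised. Cluster 8 had 8 of 8 macrophage, 7 of 8 dendritic and 2 of 8 T and NK markers raised. Cluster 5 had 2 of 7 mast cell and 2 of 9 general epithelial markers raised, and cluster 7 had 2 of 9 general epithelial and 2 of 6 mucous neck markers raised. Cluster 1 had no marker of any list raised, though 5 of 6 erythroid and 1 of 5 endothelial markers were listed there. Clusters 1, 2, 5, 7 and 8 are given by number. The labels call the cells tumor cells, while macrophage, neutrophil and fibroblast markers defined whole clusters.

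Ereg and Areg are neighbours on chromosome 5, at 91074622 to 91093646 and 91139599 to 91148432 of GRCm38 (GENCODE M21), 45.952 kb apart and on the same strand. Tgfa lies on chromosome 6, Dusp4 on chromosome 8, Dusp6 and Phlda1 on chromosome 10, Spry2 on chromosome 14 and Dusp5 on chromosome 19. All 10 are protein-coding genes. RefSeq start-site sequences (GRCm38.p6) were matched for 5 of the genes, and 4 are shown: Areg and Dusp5, which both had their largest fold in cluster 2, and Tgfa and Dusp6, which had theirs in clusters 6 and 8. Each run is the sequence before the start site on the coding strand, at chr5:91139349-91139598, chr6:86194972-86195221, chr19:53528895-53529108 and chr10:99262981-99263230, all on the plus strand; capitals mark motif matches. The Dusp5 run stops 36 bases short of the RefSeq start, where the GENCODE gene begins, and the other runs stop at the base before the RefSeq start.
Areg: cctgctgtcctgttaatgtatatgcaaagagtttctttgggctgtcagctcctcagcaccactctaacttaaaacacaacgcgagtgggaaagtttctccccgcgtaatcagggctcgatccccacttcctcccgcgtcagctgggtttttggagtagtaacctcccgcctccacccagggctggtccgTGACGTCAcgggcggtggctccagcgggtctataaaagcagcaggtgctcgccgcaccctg
Tgfa: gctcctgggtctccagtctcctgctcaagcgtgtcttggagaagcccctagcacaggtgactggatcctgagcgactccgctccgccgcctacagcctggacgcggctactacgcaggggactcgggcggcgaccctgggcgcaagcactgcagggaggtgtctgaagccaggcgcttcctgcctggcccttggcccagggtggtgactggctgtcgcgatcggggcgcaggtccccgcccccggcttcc
Dusp5: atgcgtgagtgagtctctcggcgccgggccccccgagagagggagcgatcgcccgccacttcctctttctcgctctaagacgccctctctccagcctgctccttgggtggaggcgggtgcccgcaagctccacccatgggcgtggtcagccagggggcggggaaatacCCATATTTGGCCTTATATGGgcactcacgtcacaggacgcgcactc
Dusp6: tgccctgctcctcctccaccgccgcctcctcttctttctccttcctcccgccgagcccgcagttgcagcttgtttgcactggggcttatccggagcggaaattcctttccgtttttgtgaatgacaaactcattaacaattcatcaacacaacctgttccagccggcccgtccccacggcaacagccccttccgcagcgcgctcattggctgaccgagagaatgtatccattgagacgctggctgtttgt
The 250 bases before each start were searched on both strands for the cAMP response element TGACGTCA, the AP-1 site TGANTCA, the ETS core CCGGAAG and the CArG box, the site of serum response factor. Areg held a cAMP response element, from 61 to 54 bases before its start, as did 1.55% of 32851 start-site sequences. Dusp5 held adjoining CArG boxes, CCATATTTGG and CCTTATATGG, from 82 to 63 bases before its RefSeq start; 1.47% of the sequences held any. The AP-1 letters were in 6.75% and the ETS letters in 6.91% of all sequences. Tgfa, Dusp6 and Spry2 had no match to any of the 4 motifs in this window.

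Over all clusters the 10 genes were listed in 30 of 110 pairs (27.3%) and raised in 12 (10.9%). For all named genes the shares were 23.3% and 10.0%, so the total is near the background. Ligands were raised in 4 of 44 pairs (9.1%), feedback regulators in 4 of 55 (7.3%) and Phlda1 in 4 of 11. The order of ligands and feedback regulators depends on the p: with no limit on it, a fold of 2 was reached in 7 of 44 ligand pairs (15.9%) and 12 of 55 feedback pairs (21.8%). Of the pairs of all named genes, 17.7% reached it. Raised ligands stood in clusters 2, 4 and 6 and raised feedback regulators in clusters 6, 8 and 9, so that cluster 6 alone had both raised. This separation follows the thresholds. All 8 clusters that listed a ligand also listed a feedback regulator, clusters 2, 3, 6, 8 and 11 had both at a fold of 2 whatever the p, and no cluster had both at a fold of 3 with the p. Clusters 1 and 7 listed none of the 10. Among the raised pairs the median fold, taken here over folds per the authors' deposited table, was 8.66 for ligands and 4.12 for feedback regulators. It was 3.85 for raised pairs of all genes. Over all listed pairs the order was the reverse. The median, again taken here over folds per the authors' deposited table, was 2.44 for the 11 ligand pairs and 3.35 for the 15 feedback pairs. It was 2.91 for all genes.

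**Figure D1:**
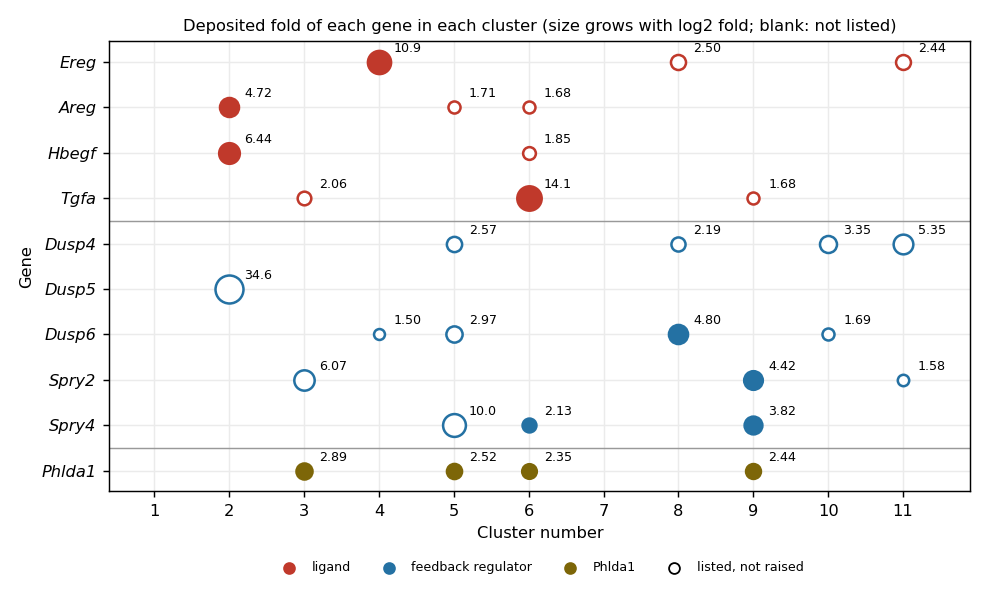
Deposited linear fold of the 10 genes (rows) in the 11 clusters (columns); filled circles are raised, open circles are listed without being raised, and blanks are not listed. Ereg stands in clusters 4, 8 and 11, apart from the other ligands, and Phlda1 is filled in clusters 3, 5, 6 and 9.

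The counts in each cluster were read against the share of all named genes called there. In cluster 2, 3 of the 10 genes were listed, against 9.07% of all genes, and 2 were raised, against 2.89%. Cluster 6 listed 5 (36.4% of all genes) and had 3 raised (20.3%), and cluster 9 listed 4 (38.9%) and had 3 raised (26.6%). Clusters 3, 4, 5 and 8 had 1 raised each, against 4.0%, 18.6%, 4.32% and 6.36% of all genes, and listed 3, 2, 5 and 3, against 29.9%, 31.5%, 20.6% and 26.4%. Clusters 10 and 11 listed 2 and 3 (18.9% and 25.7% of all genes) and had none raised (4.90% and 17.0%). None was listed in clusters 1 and 7, which listed 6.34% and 12.1% of all genes and had 1.82% and 3.42% raised. The share raised was thus above that of all genes in clusters 2, 3, 5, 6, 8 and 9, where with 10 genes a single gene is 10 percent. Of the 5 genes listed in cluster 5, 4 missed the p, as did most genes there (24.7% of those listed passed it). Feedback regulators passed the p in 6 of their 15 listed pairs (40%), ligands in 7 of 11 (63.6%), and all genes in 55.3%. With a gene that is not listed set at a fold of 1.5, the median log2 fold of the ligands minus that of the feedback regulators was 0.83 in cluster 2, 0.23 in cluster 6 and -0.78 in cluster 5, and 0 elsewhere because most of both classes were not listed.

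**Figure D2:**
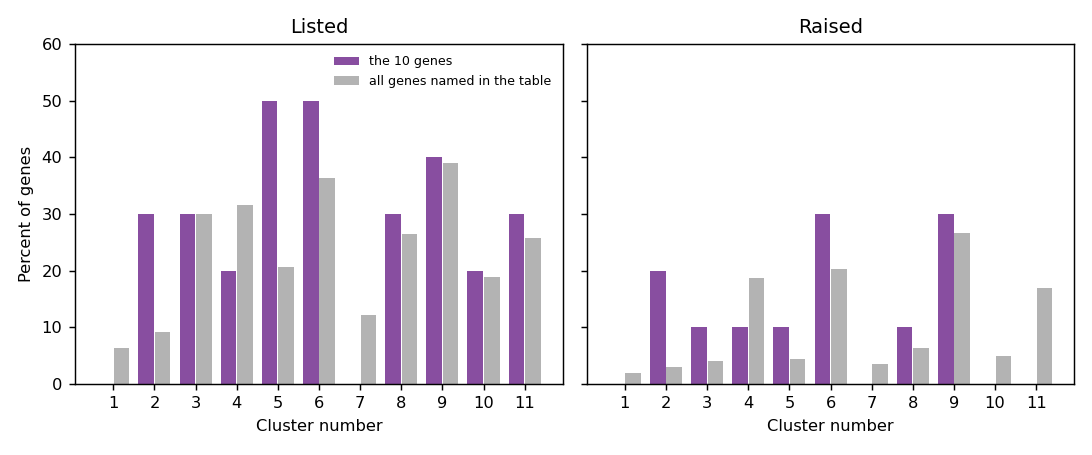
Percent of the 10 genes (purple) and of all 18319 named genes (grey) that were listed (left) and raised (right) in each cluster. The purple bar for raised genes is 20 percent in cluster 2, where the grey bar is 2.89 percent, and it is near the grey bar in cluster 9.

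Of the ligands, Ereg stood apart from the rest. It was listed in clusters 4, 8 and 11, at folds of 10.9, 2.50 and 2.44 per the authors' deposited table, and raised only in the macrophage-like cluster 4. Cluster 8 likewise had 8 of 8 macrophage markers raised, but Ereg was not raised there. Areg, Hbegf and Tgfa were listed in clusters 2, 3, 5, 6 and 9 and in none of the 3 clusters that listed Ereg. Ereg and Areg, though adjacent in the genome, thus shared no cluster. Each was listed in only 3 clusters, so sharing none is not unusual. Areg and Spry2, Tgfa and Dusp4, and Dusp6 and Spry2 likewise shared none, while other pairs, such as Areg and Hbegf, did share clusters. The share of all gene pairs with no cluster in common was not counted, so whether the separation of Ereg exceeds it was not tested. In cluster 4 the fold of Ereg exceeded that of 94.7% of the 5762 listed genes. In clusters 8 and 11 its p was above 0.05 and it came late in the order, at place 3695 of 4844 and 4564 of 4710.

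Areg and Hbegf, ligands that also bind heparan sulfate, followed each other closely. In cluster 2 Areg was raised at 4.72 and Hbegf at 6.44 per the authors' deposited table, at places 168 and 164 of 1661 by p. Only 2.89% of all genes were raised in that cluster. The erythroid markers were the leading list there, and the neutrophil list had 4 of 7 markers listed and none raised; their part in the ligand folds was not tested. In the epithelial-like cluster 6, Areg at 1.68 and Hbegf at 1.85 per the authors' deposited table passed the p but not the fold of 2. They came early all the same, at places 169 and 100 of 6664. Areg was also listed in cluster 5, at 1.71 per the authors' deposited table, with a p above 0.05. Over the 11 clusters the log2 folds of Areg and Hbegf had a Pearson r of 0.99, which rests on cluster 2, since Dusp5, listed in that cluster alone, also had an r of 0.99 with each.

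Tgfa had the largest fold of any raised pair. It was at 14.1 in cluster 6 per the authors' deposited table, above 98.0% of the genes listed there, and at place 545 by p. In cluster 9, the other cluster rich in surface mucous markers, Tgfa was at 1.68 per the authors' deposited table and passed the p but not the fold. In cluster 3 it was at 2.06 per the authors' deposited table and near the end of the order, at place 5394 of 5474. All 3 clusters that listed Tgfa were the epithelial-like ones. Cluster 6 was also the only cluster to list 3 of the 4 ligands, and all 3 passed the p there. That cluster listed 36.4% of all genes, and 74.5% of the genes listed there passed the p.

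Among feedback regulators, the Sprouty genes were raised in clusters 6 and 9 and a phosphatase only in cluster 8. Spry2, an inhibitor of receptor-to-RAS signalling, was raised in cluster 9 at 4.42 per the authors' deposited table, above 81.9% of the genes listed there. In cluster 3 its fold was larger, 6.07 per the authors' deposited table, but its p was above 0.05 and it was not raised. In the fibroblast-like cluster 11 Spry2 was at 1.58 per the authors' deposited table, past the p and below the fold of 2. Spry4 was raised in clusters 9 and 6, at 3.82 and 2.13 per the authors' deposited table. The value in cluster 6 was the smallest fold of any raised pair. In cluster 5 Spry4 was at 10.01 per the authors' deposited table, at place 3463 of 3765 and not raised. Both Sprouty genes were thus raised in cluster 9, where 26.6% of all genes were raised.

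Dusp6, the cytoplasmic phosphatase most specific for ERK, was raised in cluster 8 at 4.80 per the authors' deposited table and came at place 225 of 4844. That cluster had macrophage and dendritic markers and 2 of 8 T and NK markers raised, and 6.36% of all genes were raised in it. In the macrophage-like cluster 4 Dusp6 was at 1.504 per the authors' deposited table, close to the limit of the table. In clusters 5 and 10 it was at 2.97 and 1.69 per the authors' deposited table, with p above 0.05. Dusp4, a nuclear phosphatase, was listed in 4 clusters and raised in none. Its folds in clusters 5, 8, 10 and 11 were 2.57, 2.19, 3.35 and 5.35 per the authors' deposited table. Dusp4 and Dusp6 were listed together in clusters 5, 8 and 10, and no cluster listed a phosphatase and Spry2 together except cluster 11. Dusp5, another nuclear ERK phosphatase, was listed in cluster 2 alone, beside Areg and Hbegf. Its fold of 34.6 per the authors' deposited table was the largest of all 30 listed pairs, yet it stood at place 1125 of 1661 and was not raised.

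**Figure D3:**
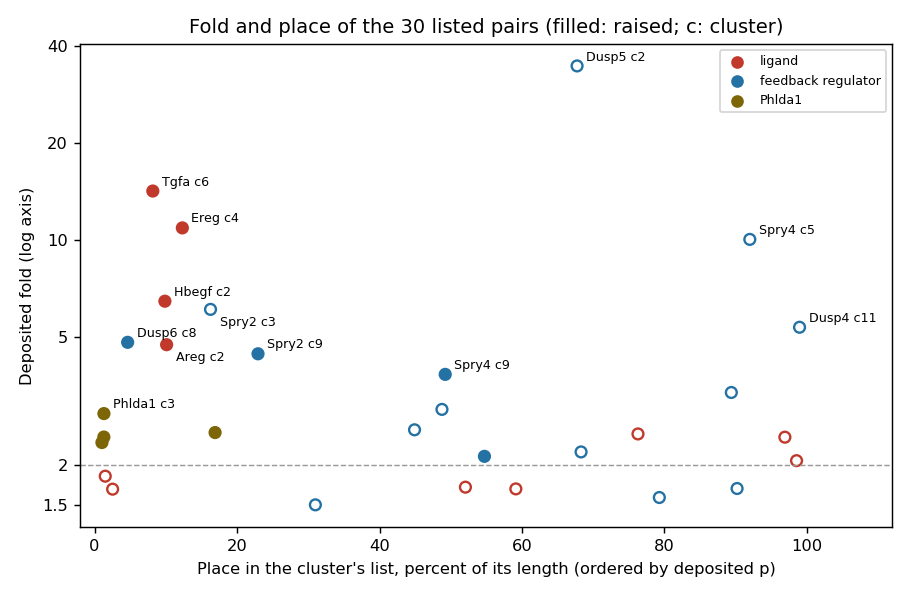
Deposited fold (log axis) of the 30 listed pairs against their place in the cluster's list, as a percent of its length; filled points are raised. Phlda1 combines modest folds with early places, and Dusp5 in cluster 2 and Spry4 in cluster 5 have large folds at late places.

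Phlda1, an ERK-responsive gene that encodes a protein with a pleckstrin-homology-like domain, had the most even pattern. It was raised in the 3 epithelial-like clusters 3, 6 and 9 and in cluster 5, at 2.89, 2.35, 2.44 and 2.52 per the authors' deposited table. Being raised in 4 clusters or more was shared with 0.317% of all genes (58 of 18319). It was at place 72 of 5474 in cluster 3, 69 of 6664 in cluster 6 and 93 of 7131 in cluster 9, and at place 637 of 3765 in cluster 5. Clusters 3, 5, 6 and 9 had 7, 5, 8 and 8 of 9 general epithelial markers listed, and cluster 7, which did not list Phlda1, had 4. The numbers raised were 5, 2, 5 and 5, and 2 in cluster 7, so clusters 5 and 7 were equal by that count. Phlda1 shared 3 clusters with Tgfa (3, 6 and 9) and 3 with Spry4 (5, 6 and 9).

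ErbB receptors were raised in clusters 6, 9 and 11, and in 6 of 44 pairs over all clusters (13.6%, against 10.0% of all pairs). Of the 6, 3 lay in cluster 9, where 26.6% of all genes were raised. Egfr, the receptor of all 4 ligands, was raised in clusters 9 and 11, at 2.65 and 3.36 per the authors' deposited table. Erbb2, the partner receptor without a ligand of its own, was raised in clusters 6 and 9 at 5.74 and 3.82, and Erbb3 in the same clusters at 2.42 and 3.90, per the authors' deposited table. In cluster 6, where Tgfa was raised, Egfr was not listed. In clusters 3 and 5 Egfr was listed at 2.48 and 5.26 per the authors' deposited table without being raised. Erbb4 was listed only in cluster 1, at 9.61 per the authors' deposited table, and was not raised. No receptor was listed in clusters 2 and 4, where Areg, Hbegf and Ereg were raised, nor in clusters 7, 8 and 10.

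Of the 7 other ErbB ligands, 6 are named in the table, and they were raised in 5 of 77 pairs (6.5%, against 10.0%). Egf and betacellulin (Btc), which bind EGFR, were raised in cluster 9 at 5.12 and 2.57 per the authors' deposited table. None of the 4 ligands described above was raised in that cluster. The neuregulins Nrg1 and Nrg2, ligands of Erbb3 and Erbb4, were raised at 5.995 in cluster 7 and, for Nrg2, at 2.87 in cluster 8 and 5.15 in cluster 10 per the authors' deposited table. The 9 shedding genes were raised in 13 of 99 pairs (13.1%, against 10.0% of all pairs). The protease Adam17, the main sheddase of Areg, Ereg, Hbegf and Tgfa, was raised only in the neutrophil-like cluster 10, at 7.81 per the authors' deposited table. Adam19 was raised at 15.1 there, 2.52 in cluster 4 and 2.51 in cluster 11, and Adam12 at 7.73, 5.72 and 4.21 in clusters 6, 9 and 11, per the authors' deposited table. Rhbdf2, an inactive rhomboid that carries ADAM17 to the cell surface, was raised beside Ereg in cluster 4 at 6.90 per the authors' deposited table. Its relative Rhbdf1 was raised beside Areg and Hbegf in cluster 2, at 2.89, and in clusters 9 and 11, at 2.48 and 2.996, per the authors' deposited table.

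The 21 adaptors and kinases between receptor and ERK were raised in 25 of 231 pairs (10.8%, against 10.0% of all pairs). Of the 25, 10 lay in cluster 4 and 5 in cluster 2. The median fold of those 25 was 2.81, against 3.85 for raised pairs of all genes. The RAS activators Sos1 and Sos2 were at 11.6 in cluster 10 and 4.41 in cluster 6 per the authors' deposited table. Cluster 4, where 18.6% of all genes were raised, therefore had Ereg, 10 of 21 cascade genes and 5 of 16 ERK target genes raised. None of the 5 feedback regulators and none of the 18 others was raised there. Listed there without being raised were Dusp6 at 1.504, Dusp10 at 5.55, Spred1 at 1.89, Dusp9 at 1.84 and Dusp1 at 1.81 per the authors' deposited table.

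Other feedback regulators were raised in 18 of 198 pairs (9.1%, against 10.0% of all pairs). In cluster 10, 3 of 18 were raised, against 4.90% of all genes, with the phosphatases Dusp2 at 55.4 and Dusp1 at 9.34 per the authors' deposited table. In the fibroblast-like cluster 11, where Spry2 reached 1.58 per the authors' deposited table, the related Spry1 was at 23.3 and the phosphatase Dusp10 at 17.7. Socs5 was raised in 3 clusters (6, 9 and 11), at 5.91, 2.01 and 2.06 per the authors' deposited table. In cluster 9, 6 of 18 were raised, against 26.6% of all genes, the largest such share of any cluster. They included Dusp9 at 14.4, Spred3 at 3.97 and Il17rd at 3.43 per the authors' deposited table; these were picked after their values were seen.

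The 16 ERK target genes were raised in 25 of 176 pairs (14.2%, against 10.0% of all pairs). The largest folds were those of the immediate-early transcription factors Egr2 at 64.4 in cluster 4 and Egr1 at 15.6 in cluster 10, and of Ier3 at 11.2 in cluster 10, per the authors' deposited table. In cluster 10, where 4.90% of all genes were raised, 5 of 16 were. Fos was raised in clusters 2, 4 and 8 at 2.62, 2.64 and 2.46, the clusters in which Areg and Hbegf, Ereg and Dusp6 were raised, per the authors' deposited table. Fos was not listed in clusters 3, 5, 6 and 9, where others of the 10 genes were raised. The cyclin gene Ccnd1 was raised in clusters 3, 5 and 9 at 2.44, 2.89 and 2.47 per the authors' deposited table, and Phlda1 was raised in each of these. In cluster 6, where Phlda1 was raised too, Ccnd1 was at 1.87 per the authors' deposited table and was not raised. The ETS factors Etv5 and Etv4, picked after their values were seen, were at 6.73 and 2.09 in cluster 9 per the authors' deposited table, beside Spry2 and Spry4.

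**Figure D4:**
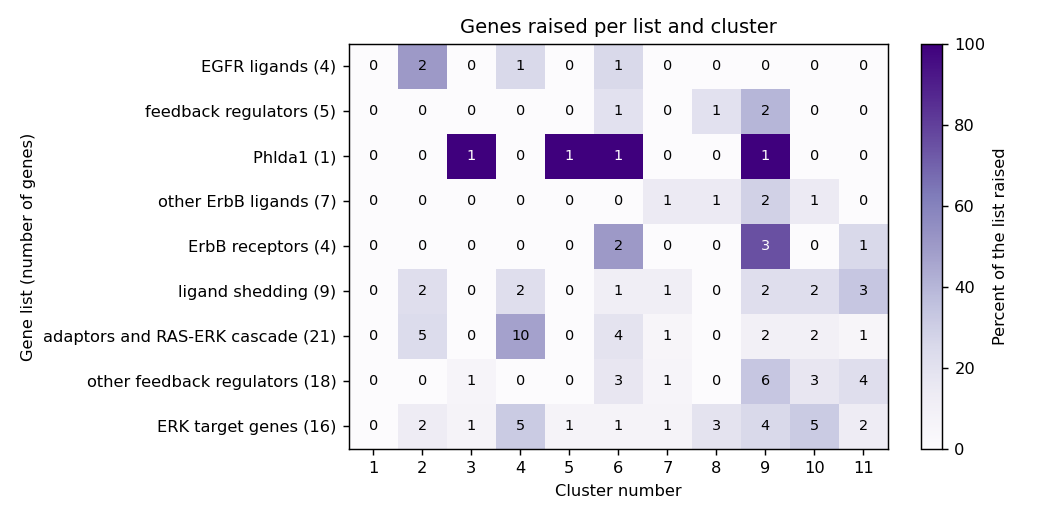
Number of genes raised in each cluster (printed) and the percent of the list that this is (colour), for the 10 genes in their 3 classes and for 6 pathway lists, with list sizes in brackets. Cluster 4 has 10 of 21 cascade genes and cluster 9 has 3 of 4 receptors raised.

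The genes whose profile was most like each member were found by Pearson r of log2 folds over the 11 clusters, with a fold of 1.5 for clusters that did not list a gene. Genes with predicted or clone names, ribosomal protein genes and mitochondrial genes were left out of the comparison. Of the 7877 other genes that remained and were listed in at least 3 clusters, those most like Tgfa were Avil (r = 0.9999) and Megf6 (r = 0.9991). For Spry2 they were the microvillus gene Vil1 (r = 0.9992) and the leptin receptor Lepr (r = 0.998), both listed in clusters 3, 6 and 9. For Spry4 they were Ttf1 (r = 0.9999) and Noc3l (r = 0.9990), and for Phlda1 Usp22 (r = 0.987) and the mucin Muc1 (r = 0.984). Ereg was most like Pkig (r = 0.991) and Prkx (r = 0.986), and Areg like Cybc1 and Fam91a1 (both r = 0.994). Dusp6 was most like Pigl (r = 0.987) and the chemokine Ccl5 (r = 0.982), and Dusp4 like Tiprl (r = 0.941) and Rcan2 (r = 0.925). With most clusters at the same assigned value, each r rests on the size of the folds in few clusters. The most alike genes need not be listed in the same clusters: Spry2 was listed in clusters 3, 9 and 11. An r above 0.9 was reached by 168 genes for Tgfa, 187 for Spry2 and 10 for Dusp4.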

How the data were processed

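Cells of 2 tumors, 1 library per tumor type, were grouped by the labels, and the data used were 1 table of the authors' comparisons for 11 clusters. Per the file headers, it holds a linear fold (a ratio) and a p-value for each listed gene, as the authors deposited them, without naming the test or any adjustment. The submitters' processing notes name mm10, STAR 2.7.3a, Partek and DESeq2 3.5, with no role for each. For cell filters, doublets, the size of clusters and sequencing depth, no information was used here. All listed folds exceed 1.5, so lowered genes are not seen, and folds of genes found in few cells can be large. The table has 0 columns of per-sample values.

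Listed and raised genes (fold of at least 2, p of at most 0.05) were counted with Python 3.11.15 and pandas 2.3.3, against the 18319 named genes. The likeness measure was run on simulated data in which each planted partner was a near copy of its profile. That run checks only the computation and does not bear on how firm the r values above are. The genes and lists were chosen with earlier results of these data known, so no test was made over them. Of each pathway list the 3 raised pairs of largest fold and genes raised in most clusters were named, others where stated; of genes raised in equally many clusters some are given only by count. A few of the genes so chosen are not reported here. Positions are 1-based from GENCODE M21 (GRCm38), matched by symbol for all 10 genes. Printed start-site runs stop before the annotated gene. Alternatives changed the fold, the p, the place in the list and the value given to unlisted genes.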

Additional observations from a re-analysis of the deposited data

How the results depend on the processing

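With the fold limit at 3, 7 pairs of the 10 genes were raised in place of 12 (6.60% of all pairs), and with no limit on p, 23 were (17.7% of all pairs). Ligands went from 4 raised pairs to 7 at a fold of 1.5 (15.9%, against 12.9% of all pairs). They also went to 7 with no limit on p. Feedback regulators went from 4 to 12 with no limit on p. Among the first 1000 genes of each cluster they went to 1 (1.82%, against 4.01% of all pairs). A p of at most 0.01 moved none of these 3 counts by over 1.5 times, and it left 0 of 10 raised in cluster 5, where Phlda1 was the 1 raised. The difference of medians between ligands and feedback regulators kept its sign in clusters 2 and 6 under the alternatives tried; in cluster 5 it was 0 when folds with a p above 0.05 were treated as unlisted, and in cluster 9 it was -0.35 with Phlda1 among the feedback regulators. No library could be left out, since the table has no values per library. No paired analysis was possible because each tumor type has 1 library and the table does not separate them. Depth per cell and cells per cluster are unknown, so a large fold with a high p, such as that of Dusp5 in cluster 2, has no stated precision.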
